A study of Saccharomyces cerevisiae with 11 samples.

Results

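The large subunit of the budding yeast ribosome is built on its ribosomal RNAs from proteins encoded by the RPL genes, RPP0 and the 4 stalk genes RPP1A, RPP1B, RPP2A and RPP2B. Their mRNA levels were examined in Saccharomyces cerevisiae strains that differ in the tail at the N terminus of the histone H2A they carry. Members were taken by name: every gene called RPL with a number, with or without A or B, and the 5 RPP genes, which gave 81 genes in the R64 gene table. Of these, 75 had a probe set of their own name on the array, among 5415 genes tested. The strains were R11, with an arginine inserted at position 11 of H2A (2 arrays), K11, with a lysine at the same position (2 arrays), R11ΔS15, which joins the arginine to a deletion of serine 15 (2 arrays), ΔS15, with the deletion alone (2 arrays), and WT, with unaltered yeast H2A (3 arrays). The titles call the double mutant R11, while its genotype entry names a lysine, so the residue rests on the titles. In all 5 strains both chromosomal H2A genes were deleted and a plasmid supplied the only H2A, the mating type was a, and no other treatment was given. Cells were grown in rich medium after dilution to an OD600 of 0.2 and taken at an OD600 of 0.8, and their polyadenylated RNA was hybridised to 1-colour Affymetrix arrays. The submitters call the replicates biological, and each strain stands for 1 H2A allele in 1 background. The a-specific genes MFA1, MFA2, STE2 and BAR1 read between 1040.5 and 5587 on every array, whereas the alpha pheromone genes MF(ALPHA)1 and MF(ALPHA)2 read between 29.1 and 114 and the alpha genes STE3 and SAG1 between 130.0 and 823.

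Ribosomal protein genes are transcribed at very high rates in growing yeast, and their promoters are bound by Rap1 together with Fhl1, Ifh1 and Sfp1, which tie them to nutrient signals. The proteins enter the nucleolus, join the precursor of the large subunit, and travel with it to the cytoplasm. Most are encoded by 2 paralogs, A and B, left by an ancient genome duplication. Here 35 pairs and 11 single genes made up the 81, spread over 14 chromosomes. Of the 81, 6 had no probe set that carries their name, RPL1A, RPL7B, RPL35B, RPL41B and RPL42A among them. In each of the pairs of these 5 the partner (RPL1B, RPL7A, RPL35A, RPL41A and RPL42B) was read by a probe set with the suffix that marks probes shared by several transcripts, so those values may hold both copies. The same suffix stood on the brightest probe set of RPL2A, RPL4A, RPL14B, RPL18B and RPL21A, which brings the shared readings to 10 of 75. The signals were high throughout. The mean signal of a member had a median of 6546, against 607 over all genes tested, 71 of 75 lay above the 90th percentile of genes, and 66 exceeded 5000. 4 members were clearly dimmer: RPL41A (mean signal 138), RPL15B (939.5), RPL9B (1731) and RPL26B (2919). Signals of different probe sets do not rank transcripts, so each gene was compared only with itself, and every fold change or difference below is on the log2 scale unless a sentence names another.

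With all 3 WT arrays in the fit, no large subunit gene passed the test in any strain. Without WT replicate 3, limma called 21 members lower in R11ΔS15 (28%, against 1.55% of all genes) and 5 in ΔS15 (6.67%, against 0.425%). In those calls strain cannot be told apart from a split between arrays that is described below. In R11ΔS15, 71 of 75 members lay below WT (median log2 fold change -0.15), and in ΔS15 59 of 75 did (median -0.087). The median was 0.029 in R11 and 0.010 in K11, with 26 and 29 members below WT. All 4 comparisons use the same WT arrays. The median over all genes tested was 0.0020 in R11ΔS15, 0.0033 in ΔS15, -0.018 in R11 and -0.013 in K11. With limma and Benjamini-Hochberg adjustment over 5415 genes, 0 of 75 members reached an adjusted p of 0.05 in each of the 4, against 0% of all genes in each. The smallest adjusted p of a member was 0.449 in R11ΔS15, 0.782 in ΔS15, 0.9999 in R11 and 0.9999 in K11. At an unadjusted p of 0.05 by limma there were 27 of 75 members in R11ΔS15, 6 in ΔS15, 1 in R11 and 0 in K11. Among all 5415 genes tested there were 544 in R11ΔS15, 286 in ΔS15, 19 in R11 and 23 in K11. The 52 small subunit genes measured had medians of -0.15 in R11ΔS15, -0.071 in ΔS15, 0.025 in R11 and 0.0071 in K11, nearly those of the large subunit.

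Counts of members whose arrays did not overlap with WT followed the same order. In R11ΔS15 both arrays lay below all 3 WT arrays for 37 of 75 members (49.3%), against 12.6% of all genes, and above them for 1, RPL15B (1.33%), against 10.6% of all genes. ΔS15 had 8 such members below WT (10.7%, background 7.79%) and 2 above (2.67%, background 7.9%). R11 had 1 below (1.33%, background 4.71%) and 5 above (6.67%, background 3.62%). K11 had 2 below (2.67%, background 4.17%) and 0 above (background 4.6%). Against all 3 WT arrays only the share in R11ΔS15 stood far from its background over all genes, and 30 of 52 small subunit genes were below WT there as well. Among 194 other genes as bright as the members, 57 (29.4%) were below WT in R11ΔS15 and 5 (2.58%) above.

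The 3 WT arrays were not alike for these genes. The members' median relative to the WT mean was -0.11 on WT replicate 3, against 0.051 and 0.048 on replicates 1 and 2. The 4 arrays without serine 15 sat beside WT replicate 3, at -0.17 and -0.15 in R11ΔS15 and -0.075 and -0.10 in ΔS15, while R11 (0.034 and 0.020) and K11 (0.0080 and 0.017) sat beside WT replicates 1 and 2. The same split ran through other readings. The 12 spike-in control probe sets averaged 10.46 to 10.51 on the log2 scale on the 5 arrays of R11ΔS15, ΔS15 and WT replicate 3 and 10.59 to 10.79 on the other 6, and the ratio of the 3′ to the 5′ probe set of ACT1, a reading of RNA integrity and labelling, was 1.04 to 1.11 on those 5 arrays and 1.26 to 1.35 on the 6. The members' median signal was 6053 to 6441 on the 5 and 6748 to 6971 on the 6, and the 99th percentile of yeast signals was 6988 to 7519 and 7732 to 8298 on the same sets. The 194 other genes of like brightness, which encode no cytosolic ribosomal protein, were at medians of -0.068 and -0.10 on the R11ΔS15 arrays, -0.011 and -0.083 on the ΔS15 arrays and 0.028, 0.074 and -0.090 on the WT arrays. The part of this array split in the members' shift was not tested.

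**Figure D1:**
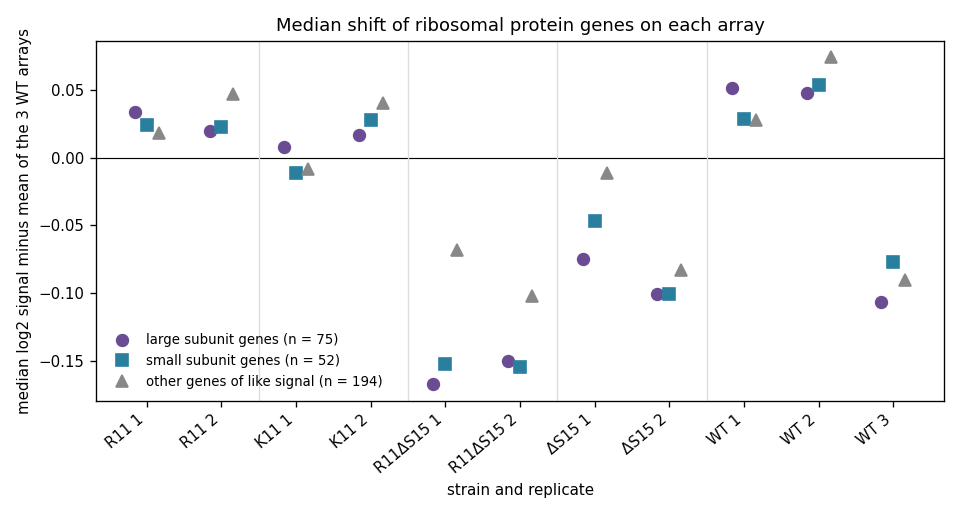
Median log2 signal of 75 large subunit genes (circles), 52 small subunit genes (squares) and 194 other genes of like brightness (triangles) on each of the 11 arrays, as the difference from the mean of the 3 WT arrays (vertical axis, log2 units), by strain and replicate (horizontal axis). The large subunit median is below 0 on both R11ΔS15 arrays (-0.17 and -0.15), both ΔS15 arrays (-0.075 and -0.10) and WT replicate 3 (-0.11), and above 0 on the other 6 arrays.

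The result depended on which WT arrays were used. Against WT replicates 1 and 2 only, the members' median was -0.20 in R11ΔS15 and -0.15 in ΔS15, and limma called 21 of 75 members lower in R11ΔS15 (28%), against 1.55% of all genes, and 5 lower in ΔS15 (6.67%), against 0.425%. No member was called higher in either. Without WT replicate 3, WT had only brighter spike-in readings and R11ΔS15 and ΔS15 only dimmer ones. Strain and array split therefore cannot be told apart in these calls. The 5 called in ΔS15 were RPL2A, RPL5, RPL21B, RPL29 and RPL36A. RPL2A was read by a shared probe set, and its own probe set gave 0.13 in ΔS15 against all 3 WT arrays. In that fit 16 of 52 small subunit genes and 29 of the 194 bright genes were called lower in R11ΔS15. Both arrays lay below WT replicates 1 and 2 for 59 members in R11ΔS15 (78.7%, background 20.2%) and for 55 in ΔS15 (73.3%, background 19.2%). In R11 and K11 the sign of the median turned. Against WT replicates 1 and 2 it was -0.029 in R11, with 57 of 75 members lower, and -0.040 in K11, with 63 of 75 lower, and both arrays were below for 21 members in R11 (28%, background 8.61%) and 31 in K11 (41.3%, background 9.12%). Limma without WT replicate 3 called no member in R11 or K11. Against WT replicate 3 alone the medians were 0.13 in R11 and 0.12 in K11. Set against WT replicate 3, which shares the dimmer spike-in readings, the median was -0.044 in R11ΔS15 and 0.022 in ΔS15, with both arrays below it for 43 members in R11ΔS15 (57.3%, background 41.8%) and 10 in ΔS15 (13.3%, background 37.5%). A term for the spike-in split in the fit gave these same medians of -0.044 and 0.022 by construction. Only WT has arrays in both sets, so the term sets these strains against WT replicate 3 and is no separate check. Quantile normalization, which gives every array the same distribution, left medians of -0.021 in R11ΔS15, with 48 of 75 members lower, and -0.018 in ΔS15, with 45 of 75 lower, and 7 members in R11ΔS15 with both arrays below WT. The share of all genes below WT on both arrays was not computed under that scaling.

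The proteins of the P stalk, RPP0 with the paired RPP1 and RPP2 proteins, recruit and activate the GTPases of translation, and RPL12 lies at the stalk's base. All 7 of these genes were below WT in R11ΔS15, with a median of -0.16 against -0.15 over all members. In 3 (42.9%) the arrays did not overlap, against 49.3% of all members and 12.6% of all genes. RPL12B was lowest, with signals of 6115 and 6566 in R11ΔS15 and 8055, 7231 and 7008 in WT, a log2 fold change of -0.23 (SE 0.082, adjusted p = 0.449). RPL12A read 3310.4 and 3524 in R11ΔS15 and 4137, 3593 and 3558 in WT, -0.14 (SE 0.10), so both copies lay just under the lowest WT array. The scaffold gene RPP0 read 6716 and 6111 in R11ΔS15, 6777 and 6897 in ΔS15 and 7583, 7391 and 6477 in WT. WT replicate 3 fell between the R11ΔS15 arrays, so RPP0 overlapped (-0.16 (SE 0.076) in R11ΔS15).

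In ΔS15, 3 of the 7 had both arrays under every WT array: RPP2A, RPL12B and RPL12A (42.9%, against 10.7% of all members and 7.79% of all genes). RPL12B read 6758 and 6724 there (-0.14 (SE 0.082)) and RPL12A 3451 and 3472 (-0.12 (SE 0.10)). RPP2A was the lowest of them. Its signals were 5383 and 6031 in ΔS15 and 6645, 7351 and 6196 in WT, -0.24 (SE 0.087, adjusted p = 0.782). In R11ΔS15 it read 6213 and 5626 and overlapped WT (-0.18 (SE 0.087)). Its partner RPP2B read 5302 and 5217 in R11ΔS15, 5655 and 5722 in ΔS15 and 6062, 6210.0 and 5429.9 in WT, below all WT arrays in R11ΔS15 (-0.16 (SE 0.071)), and it overlapped in ΔS15 (-0.050 (SE 0.071)). RPP1B read 6638 and 6193 in R11ΔS15, 7092 and 6485 in ΔS15 and 7269.8, 7365 and 6512 in WT, and both strains overlapped WT, each with 1 array below the lowest WT array (-0.13 (SE 0.074) and -0.054 (SE 0.074)).

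RPP1A was the member that differed most between the arginine and the lysine at position 11. It read 6850.4 and 7556 in R11 and 6006 and 5343 in K11, a log2 difference of 0.34 (SE 0.10) with an unadjusted p of 0.00454 and an adjusted p of 0.99999 by limma. WT lay between them at 6298, 5748 and 6626, with both R11 arrays above it (0.21 (SE 0.090, adjusted p = 0.9999)) and K11 overlapping it (-0.13 (SE 0.090)). The double mutant did not show the higher reading: R11ΔS15 read 5824 and 5725 and ΔS15 6997 and 6069, and the effect of the arginine without serine 15 minus its effect with serine 15 was -0.39 (SE 0.13, unadjusted p = 0.0138, adjusted p = 0.99995). That was the only member with an unadjusted p under 0.05 for this difference, and 0 of 75 passed after adjustment.

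RPL5 and RPL11 bind the 5S ribosomal RNA and are carried into the nucleus together by the chaperone Syo1. RPL5 read 6429 and 6497 in R11ΔS15, 6618 and 6532 in ΔS15 and 7754, 8223 and 6616 in WT, with fold changes of -0.21 (SE 0.083, adjusted p = 0.449) and -0.19 (SE 0.083, adjusted p = 0.782). Both R11ΔS15 arrays were under all WT arrays, and 1 ΔS15 array was level with WT replicate 3. The 2 RPL11 copies went different ways in ΔS15. RPL11A read 6879 and 6161 there, above all WT arrays at 5639, 5671 and 6122 (0.17 (SE 0.090, adjusted p = 0.782)), while RPL11B read 8798 and 8263 against 9223, 9498 and 8380.1 in WT (-0.081 (SE 0.064)) and overlapped. RPL11A was lower in R11ΔS15, at 5286 and 5607, than in ΔS15, the lowest value of any member for R11ΔS15 against ΔS15 at -0.26 (SE 0.10, unadjusted p = 0.0227, adjusted p = 0.9999), while the highest was 0.40 (SE 0.26) for RPL41A, whose arrays overlapped. In K11 it read 5326 and 5499.6, also below all WT arrays (-0.10 (SE 0.090)).

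Around the exit tunnel, through which the new chain leaves, 16 of 16 measured genes were below WT in R11ΔS15 (median -0.16). For 10 of them (62.5%) the arrays did not overlap, against 49.3% of all members and 12.6% of all genes. In ΔS15, 15 of 16 were below WT (median -0.11). The medians over all members were -0.15 in R11ΔS15 and -0.087 in ΔS15. RPL4A, whose product reaches into the tunnel wall and has the chaperone Acl4, read 6807 and 6778 in R11ΔS15 and 8386, 8935 and 7038 in WT, -0.25 (SE 0.089, adjusted p = 0.449). RPL4B was of similar size (-0.23 (SE 0.14) in R11ΔS15, -0.27 (SE 0.14) in ΔS15) but overlapped, with WT arrays spread from 2757 to 3842. RPL37B had the smallest standard error among the 5 lowest non-overlapping members. It read 6328 and 6125 in R11ΔS15, 6299 and 6814 in ΔS15 and 7169, 8012 and 6847 in WT, so both strains lay under WT, with log2 fold changes of -0.23 (SE 0.075, adjusted p = 0.449) in R11ΔS15 and -0.16 (SE 0.075) in ΔS15. RPL35A, at the tunnel rim, read 5499.9 and 5616 in R11ΔS15, 5576 and 5619.9 in ΔS15 and 6538, 6514 and 5682 in WT (-0.17 (SE 0.073) and -0.15 (SE 0.073)). RPL39, the small protein that lines the tunnel, read 3834 and 4148 in R11ΔS15, 4443 and 4435 in ΔS15 and 3937, 3449.8 and 4843 in WT, with WT replicate 3 the highest of all 11 arrays.

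Near the peptidyl transferase centre and the tRNA sites, all 7 genes were below WT in R11ΔS15 (median -0.18). For 4 (57.1%) there was no overlap, against 49.3% of all members and 12.6% of all genes. RPL3, which binds early and is held by the chaperone Rrb1, read 8216 and 7956 in R11ΔS15 and 9736, 9899.6 and 8646 in WT (-0.22 (SE 0.068, adjusted p = 0.449)). RPL10, loaded last with the chaperone Sqt1, read 6314 and 6149.6 in R11ΔS15 and 7509, 7781 and 6576 in WT (-0.22 (SE 0.075, adjusted p = 0.449)). RPL28, in which cycloheximide resistance mutations are known, read 7232 and 7401 in R11ΔS15 and 8645, 8739 and 7512 in WT (-0.18 (SE 0.072)). The 3 genes gave much the same picture: in WT replicates 1 and 2 high, WT replicate 3 lower, and both R11ΔS15 arrays lower still. In ΔS15 their fold changes were -0.12 (SE 0.068) for RPL3, -0.13 (SE 0.075) for RPL10 and -0.16 (SE 0.072) for RPL28, and all 3 overlapped WT.

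Among the remaining members, RPL7A and RPL15A were the lowest in R11ΔS15 with no overlap. RPL7A, whose shared probe set may also read RPL7B, had 6366 and 6292 in R11ΔS15 and 7887, 8180.4 and 6458 in WT (-0.24 (SE 0.090, adjusted p = 0.449)), and RPL15A had 6128 and 5671 in R11ΔS15 and 7124, 7381 and 6197 in WT (-0.22 (SE 0.083, adjusted p = 0.449)). RPL36A had the lowest fold change of all in R11ΔS15, -0.26 (SE 0.14), and -0.27 (SE 0.14) in ΔS15, but overlapped in both. Its signals were 5187 and 5504 in R11ΔS15, 5389 and 5228 in ΔS15 and 6993, 7454 and 5074 in WT, so WT replicate 3 was the lowest of all 11 arrays, and the range of 0.56 on the log2 scale was the third widest. RPL41A had the widest range (1.19). This gene for a tiny basic protein was also the dimmest, and read 95.9 and 155 in R11ΔS15, 74.3 and 115 in ΔS15 and 157, 147 and 133 in WT. Both ΔS15 arrays were under WT (-0.65 (SE 0.24, adjusted p = 0.782)), with the 2 ΔS15 arrays far apart. The narrowest ranges belonged to RPL13B (0.18), RPL36B (0.18) and RPL14A (0.19). The median range of a member was 0.33, against 0.53 over all genes.

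RPL22B and RPL30 have a described feedback in yeast, in which the protein holds back splicing of its own transcript. RPL22B read 3701 and 3783 in R11, above all WT arrays at 3601, 3496 and 2911 (0.17 (SE 0.10)), whereas in R11ΔS15 it read 2875 and 3009 and in ΔS15 2914 and 2912, close to WT replicate 3. Its partner RPL22A stayed between 6234 and 7179 on all 11 arrays. RPL30 read 8208 and 7472 in R11ΔS15, 8490.4 and 8025 in ΔS15 and 8610.0, 8834 and 8065 in WT and overlapped in both (-0.12 (SE 0.065) and -0.042 (SE 0.065)). Other members above WT on both R11 arrays were RPL33A (0.12 (SE 0.073)), RPL36B (0.077 (SE 0.063)) and RPL14A (0.019 (SE 0.061)), and RPL2B was the 1 below (-0.041 (SE 0.091)), as it was in K11 (-0.087 (SE 0.091)).

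**Figure D2:**
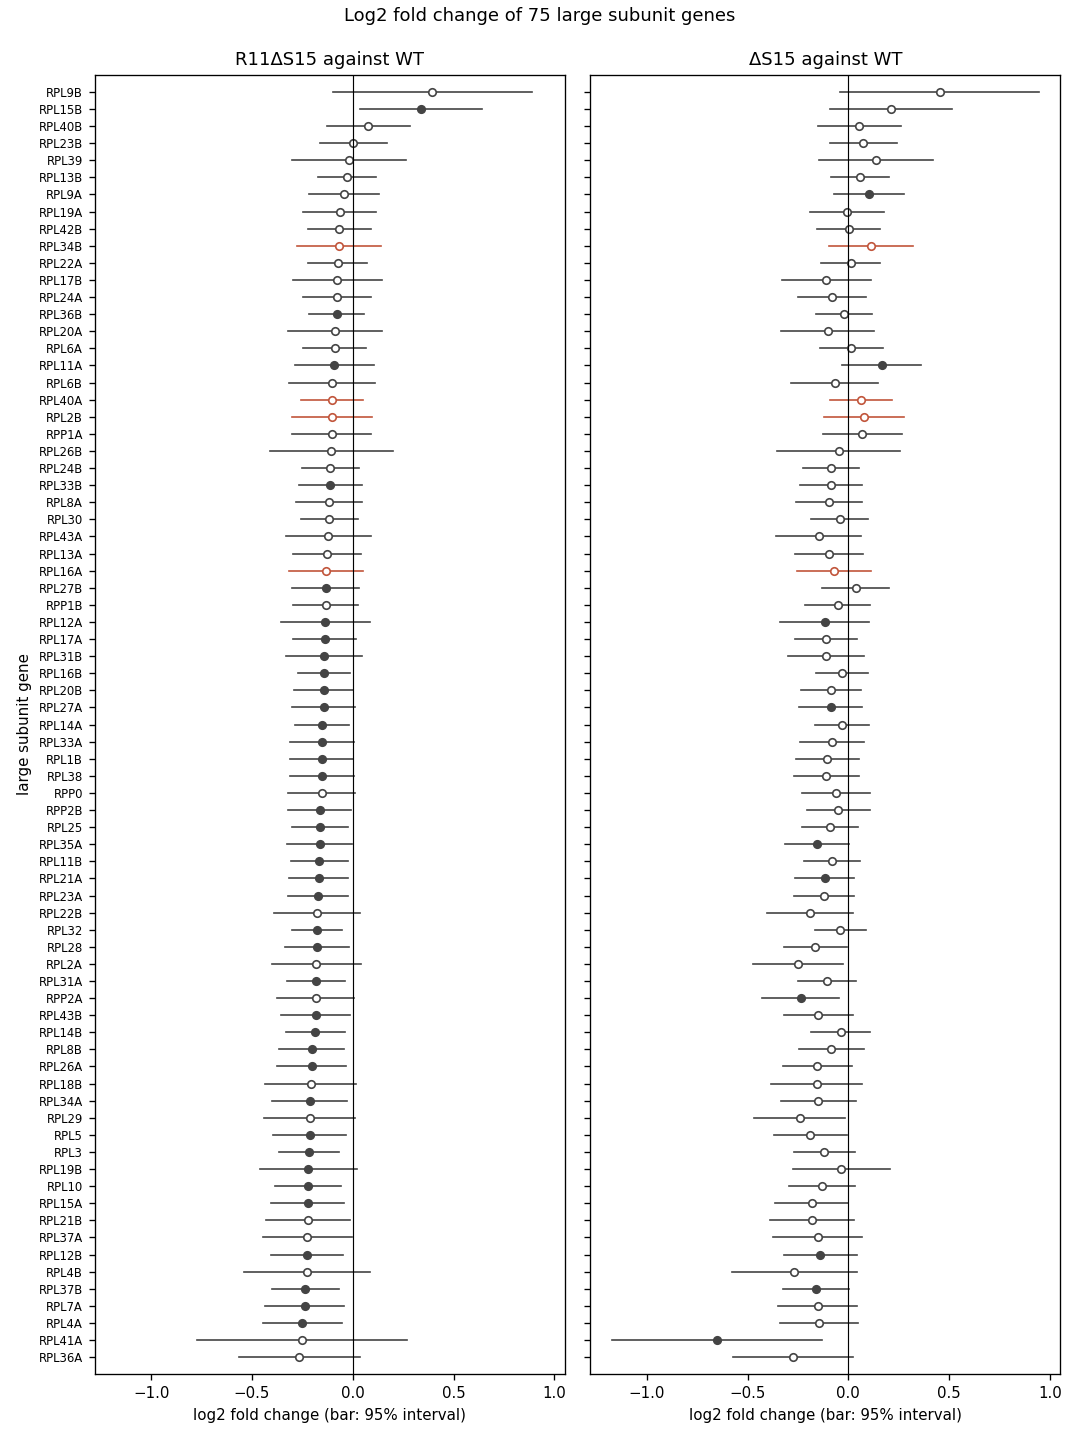
Log2 fold change of each of the 75 large subunit genes (rows, ordered by their value in R11ΔS15) in R11ΔS15 (left) and ΔS15 (right) against the same 3 WT arrays, with the 95% interval from limma as a bar. Filled points mark genes whose 2 mutant arrays do not overlap with the WT arrays, and red marks the 4 genes on chromosome IX; 71 of 75 points are below 0 in R11ΔS15 and 59 of 75 in ΔS15, and RPL9B and RPL15B are highest in both.

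The arginine was also compared within each serine 15 background. R11ΔS15 against ΔS15 gave a median of -0.059, with 62 of 75 members lower, 0 called by limma (0% of all genes), and 2 at an unadjusted p of 0.05. Both R11ΔS15 arrays were under both ΔS15 arrays for 35 members (46.7%, background 7.94%) and over them for 1, RPL2A (1.33%, background 8.37%). That RPL2A reading is from a shared probe set. Its own probe set went the other way, with 5251 and 4802 in R11ΔS15 and 5319 and 5733 in ΔS15. The 29 of 52 small subunit genes under both ΔS15 arrays (55.8%) and the 54 of 194 bright genes (27.8%) went the same way as the members. All 4 of these arrays have the dimmer spike-in readings, but their bright ends differed. The 99th percentile of yeast signals was 7014 and 6988 in R11ΔS15 and 7519 and 7220 in ΔS15. Quantile normalization, given at the close, left a much smaller median. The part of this difference between arrays in the members' shift was not tested. R11 against K11 gave a median of 0.018, with 24 of 75 lower, 0 called (0% of all genes), and 1 at an unadjusted p of 0.05. There 11 members had both R11 arrays above both K11 arrays (14.7%, background 8%) and 6 had them below (8%, background 8.9%). The effect of the arginine without serine 15 minus its effect with it had a median of -0.086, with 68 of 75 members below 0, against -0.087 for the small subunit genes and 0.017 over all genes.

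Paralogs were compared through the change in the A minus B difference of log2 signals, since the difference itself depends on the probes. Of 35 pairs, 25 had own probe sets for both genes, 4 had a shared one, and 6 could not be compared because 1 copy had no probe set. Over the 29 comparable pairs the median change was -0.010 in R11ΔS15 and 0.0018 in ΔS15, and it was under 0.2 in size in 27 of 29 pairs in R11ΔS15, 22 of 29 in ΔS15, 28 of 29 in R11 and 29 of 29 in K11. In R11ΔS15 the members' own fold changes ran from -0.26 to 0.39, with a median of -0.15. Changes under 0.2 in most pairs therefore do not show that paralogs kept their balance. These changes are descriptions and carry no test.

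RPL15A and RPL15B shifted most. RPL15B read 1017 and 1149.7 in R11ΔS15, 1065 and 919 in ΔS15 and 943, 819 and 807 in WT (0.34 (SE 0.14, adjusted p = 0.466) in R11ΔS15 and 0.21 (SE 0.14) in ΔS15), while RPL15A was lower in the same strains. Both R11ΔS15 arrays of RPL15B were above all WT arrays, and 1 ΔS15 array was not. The A minus B difference changed by -0.42 and -0.71 on the R11ΔS15 arrays and -0.46 and -0.32 on the ΔS15 arrays, with -0.092, 0.16 and -0.069 on the WT arrays, -0.12 and 0.16 on R11 and -0.24 and 0.12 on K11. Neither deletion strain overlapped WT. The next pair, RPL9A and RPL9B, encodes a protein beside the GTPase centre of the subunit. RPL9B read 1627 and 2539 in R11ΔS15, 2390.0 and 1874 in ΔS15, 1588 and 1175 in R11, 1770.5 and 1373 in K11 and 1512, 1278 and 1912 in WT, with a range of 1.11 on the log2 scale, and RPL9A read 4690.2 and 4989.6 in R11ΔS15, 5446 and 5243 in ΔS15 and 5126, 4635 and 5194 in WT. The fold change of RPL9B was 0.39 (SE 0.23, adjusted p = 0.577) in R11ΔS15 and 0.45 (SE 0.23, adjusted p = 0.782) in ΔS15, and both overlapped WT because WT replicate 3 was high. The A minus B difference changed by -0.16 and -0.71 in R11ΔS15 and -0.50 and -0.20 in ΔS15, against 0.074, 0.17 and -0.25 in WT. Without R11ΔS15 replicate 2 the R11ΔS15 value was -0.16, so its size rested on that array.

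Behind them came 3 pairs in which WT replicate 3 moved with the deletion strains. RPL2A minus RPL2B changed by 0.025 and -0.18 in R11ΔS15, -0.46 and -0.19 in ΔS15 and 0.11, 0.12 and -0.24 in WT, and the RPL2A probe set is a shared one. RPL34A minus RPL34B changed by -0.16 and -0.13 in R11ΔS15, -0.34 and -0.18 in ΔS15 and 0.13, 0.12 and -0.26 in WT. RPL36A minus RPL36B changed by -0.24 and -0.13 in R11ΔS15, -0.28 and -0.23 in ΔS15 and 0.077, 0.21 and -0.28 in WT. All 3 overlapped WT in R11ΔS15, and in ΔS15 only RPL34 and RPL2 had an array beyond the WT range.

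**Figure D3:**
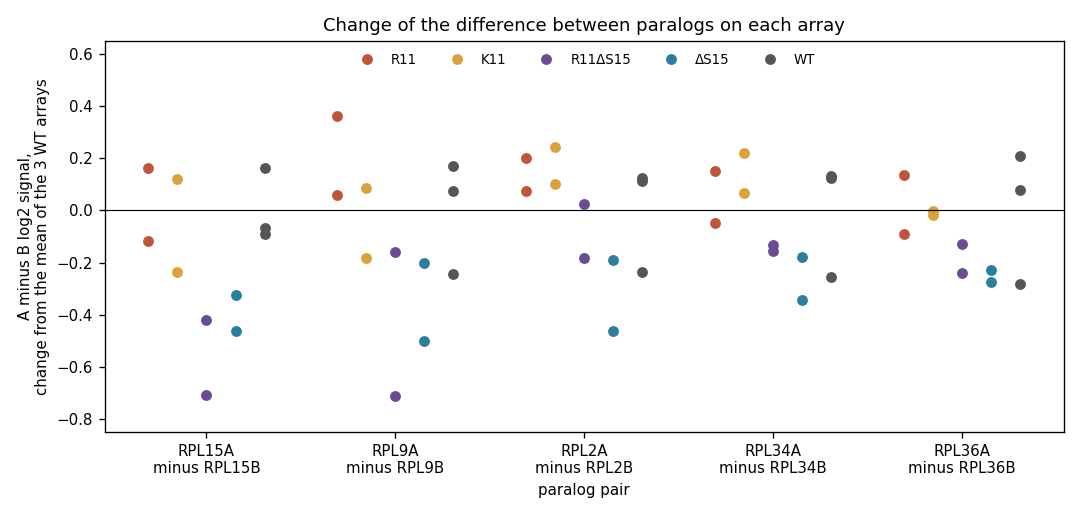
Change of the A minus B log2 signal difference from the mean of the 3 WT arrays (vertical axis) for the 5 pairs with the largest change in R11ΔS15 or ΔS15 (horizontal axis), 1 point per array, coloured by strain. Both deletion strains lie below all WT arrays for RPL15 (-0.42 and -0.71 in R11ΔS15, -0.46 and -0.32 in ΔS15), whereas in the other 4 pairs WT replicate 3 lies among or below them.

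**Figure D4:**
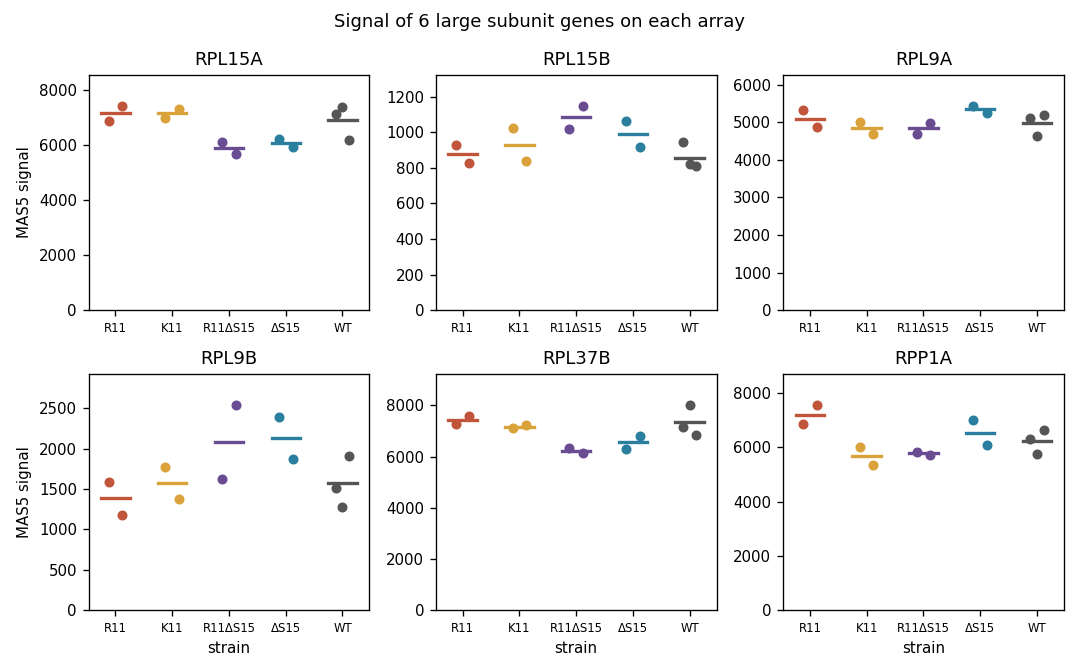
MAS5 signal of 6 members on every array (vertical axes, from 0), by strain (horizontal axis), with points for arrays and a bar for each strain's mean. RPL15A and RPL37B are lower in R11ΔS15 than in WT, RPL15B is higher (1017 and 1149.7 against 807 to 943), RPL9B varies within strains, and RPP1A is highest in R11.

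7 members had a second probe set, and in several the readings disagreed. RPL18B was read at 6556 and 6575 in R11ΔS15 and 8081, 8479 and 6384 in WT by the brighter shared probe set, a log2 change of -0.21, but at 1718 and 1939 in R11ΔS15 and 1399, 1198 and 1151 in WT by the probe set without the suffix, a change of 0.55. RPL14B differed in the same manner, -0.19 in R11ΔS15 and -0.038 in ΔS15 by the shared probe set and 0.11 and 0.35 by its own. For RPL2A the shared probe set gave -0.25 and the own one 0.13 in ΔS15. The other 4 genes, RPL8A, RPL11B, RPL20B and RPL21A, had the same sign by both probe sets in R11ΔS15, with changes between -0.11 and -0.19. In ΔS15, RPL18B read -0.16 by the shared probe set and 0.24 by the other, RPL20B -0.086 by the brighter probe set and 0.17 by the shared one, and RPL21A -0.12 by the shared probe set and 0.054 by its own. The direction thus depended on the probe set for RPL14B and RPL18B in R11ΔS15 and for all of these but RPL8A and RPL11B in ΔS15.

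Chromosome IX, which holds 4 members, read high as a whole on 2 arrays. On ΔS15 replicate 1 and R11ΔS15 replicate 2 the 188 tested genes of chromosome IX stood at a median of 0.74 above their median array on the log2 scale (1.67-fold on both), and between -0.048 and 0 on the other 9. The 4 members there, RPL2B, RPL16A, RPL34B and RPL40A, read lower than that median. On R11ΔS15 replicate 2 they read 0.058, -0.085, 0.0 and -0.17 in that order, and on ΔS15 replicate 1 0.22, -0.015, 0.23 and 0.11. The median of these 4 was -0.042 on R11ΔS15 replicate 2 and 0.16 on ΔS15 replicate 1, against -0.13 and -0.062 for the 71 members on other chromosomes. Readings on the chromosome differed with brightness. Leaving out the members, the median was 0.85 in R11ΔS15 replicate 2 and 0.78 in ΔS15 replicate 1 over 81 genes with a mean signal up to 500, 0.85 and 0.77 over 47 genes from 500 to 1000, 0.71 and 0.69 over 39 genes from 1000 to 2000, and 0.48 and 0.45 over 17 genes above 2000. The 2 genes as bright as the members, GPP1 and RPS24B, read -0.18 and -0.23 on R11ΔS15 replicate 2 and -0.070 and -0.028 on ΔS15 replicate 1. All but GPP1 of these 6 bright genes encode ribosomal proteins. The part of signal brightness in their lower readings was not tested.

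**Figure D5:**
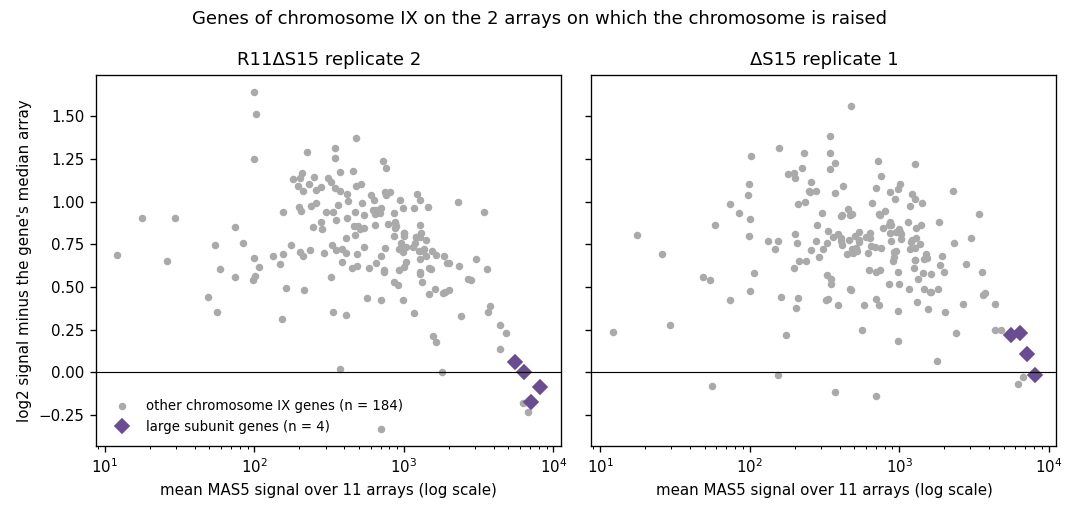
Log2 signal minus the gene's median over the 11 arrays (vertical axis) against the mean MAS5 signal (horizontal axis, log scale) for the 188 tested genes of chromosome IX on R11ΔS15 replicate 2 (left) and ΔS15 replicate 1 (right). Most of the 184 other genes (grey) lie well above 0, with a median of 0.74 over the chromosome on both arrays, while the 4 large subunit genes (diamonds) lie between -0.17 and 0.23 at the bright end.

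The paralogs of these 4 genes lie on other chromosomes. RPL40A and RPL40B encode ubiquitin joined to a large subunit protein, and read 6949 and 6392 (RPL40A) and 6070.2 and 6794 (RPL40B) in R11ΔS15, 7754 and 7212 and 6572 and 6088 in ΔS15, and 7225, 7560.2 and 6717 and 6165, 5692 and 6442 in WT. Neither copy left the WT range on both arrays of a strain. RPL16A minus RPL16B changed by -0.0057 and 0.029 in R11ΔS15 and 0.013 and -0.10 in ΔS15, within the WT range of -0.13 to 0.084. RPL2B, whose product lies near the peptidyl transferase centre, read 4816 and 5773 in R11ΔS15, 6442 and 5542 in ΔS15 and 5570.0, 5818 and 5614 in WT, and RPL34B read 6013 and 6367, 7457 and 6611 and 6452, 6096 and 6959.9 in those strains. For RPL2B, RPL16A and RPL34B the array with the raised chromosome was the higher of each deletion strain's 2 arrays.

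Genes that act on the large subunit or its genes were read from lists. Of 10 regulators of ribosomal protein genes, 0 passed in any strain and the median was -0.17 in R11ΔS15 and -0.076 in ΔS15. In R11ΔS15, 4 of the 10 lay below all WT arrays (40%, against 12.6% of all genes) and 0 above. They were the repressors TOD6 (-0.42, SE 0.15) and DOT6 (-0.23, SE 0.14) and the activators RAP1 and IFH1. RAP1 was at -0.28 (SE 0.17) and IFH1 at -0.29 (SE 0.13) in R11ΔS15. The corepressor CRF1 was at 0.50 (SE 0.30) and overlapped, and FHL1 and HMO1 were at 0.048 and -0.058 and overlapped. Of 5 dedicated chaperones, 0 passed, with a median of -0.21 in R11ΔS15. SYO1 (-0.38) and BCP1 (-0.21) lay below all WT arrays, while ACL4 (-0.22), RRB1 (-0.043) and SQT1 (0.22) overlapped. SQT1 lies on chromosome IX and read 0.47 above its median array on R11ΔS15 replicate 2, where that chromosome was raised. Of 17 export and late maturation factors, 0 passed as well, and the medians were -0.20 in R11ΔS15, -0.15 in ΔS15, 0.030 in R11 and 0.031 in K11. In R11ΔS15, 11 of the 17 lay below all WT arrays (64.7%, against 12.6% of all genes), led by the GTPase gene NOG1 (-0.57, SE 0.13, adjusted p = 0.449) and by ALB1 (-0.50, SE 0.17), and 2 lay above, REH1 and MEX67 (11.8%, against 10.6%).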

How the data were processed

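Polyadenylated RNA of the 11 cultures was labelled and hybridised by the authors to the Affymetrix Yeast Genome 2.0 array, 1 array per culture. The deposited values are linear MAS5 intensity values (signals), which the authors scaled so that each array's trimmed mean is about 500.2 here; the MAS5 version and scan dates are not given in the sources used here. Of 10928 probe sets, 5498 carry 1 S. cerevisiae gene in the array annotation, with symbols updated through Entrez identifiers to R64. The probe set with the highest mean log2 signal stood for each gene, and genes had to exceed a log2 mean of 2.35, the 95th percentile of the 1746 Schizosaccharomyces pombe probe sets; all members passed. Differences were tested with limma 3.58.1 in R 4.3.3 (lmFit, eBayes with a variance trend) on log2 signal over all 11 arrays, with Benjamini-Hochberg adjustment over 5415 genes; every standard error and p-value comes from this fit unless named otherwise, with 6 residual degrees of freedom before moderation. The fit was tested on simulated data. Depth has no meaning for arrays: their number, 2 or 3 per strain, limits the precision. No array was left out of the fit. Against WT replicate 3 alone, a reference chosen after seeing the data, values have no test. Alternatives in scaling, filters, probe sets and arrays are given at the close.

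Members and lists were chosen with earlier results of these data known. Members named are the 5 lowest and 5 highest without overlap in each mutant, the stalk genes, those on chromosome IX with their paralogs, the 3 widest and 3 narrowest ranges, the 5 pairs with the largest change, those with a chaperone or a feedback, and those without a probe set, 1 of which is not reported here. RPL26B and RPL39, the RPL8 and RPL23 pairs, and RPL21B and RPL29 in the fit without WT replicate 3, were named after their values were seen. The 5 and 6 arrays with dimmer and brighter spike-in readings were split by the smallest spread within the sets.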

Additional observations from a re-analysis of the deposited data

How the results depend on the processing

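With 24 alternatives, 150 recomputed medians stayed within the spread between arrays of a strain (pooled SD 0.053) and 13 did not. Many of the 150 could not move. The variance trend, the filter on dim probe sets and arrays of strains outside a comparison do not enter its median. The tally is therefore no measure of robustness. No median of R11ΔS15 against WT turned positive. Quantile normalization gave -0.021 in R11ΔS15, -0.018 in ΔS15, -0.0049 in R11ΔS15 against ΔS15 and -0.013 for the difference of the arginine's effects, turned RPL14A in R11 to -0.018, and left 7 members with both R11ΔS15 arrays under WT. Centring arrays on their median left 24 such members in R11ΔS15 and 3 in ΔS15, and dropping suffixed probe sets left 5 in ΔS15. The share of all genes without overlap was not computed under these settings, so the counts have no background. A term for the spike-in split, and WT replicate 3 alone as reference, gave -0.044 in R11ΔS15 and 0.022 in ΔS15, and the term gave -0.029 in R11. Leaving out both arrays with raised chromosome IX gave 28 members under WT in ΔS15 and a median paralog change of -0.044. The causes were not tested.

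Leaving out each array in turn, the median ranged from -0.20 to -0.12 in R11ΔS15, -0.15 to -0.060 in ΔS15 and -0.029 to 0.055 in R11, calls from 0 to 21 in R11ΔS15 and 0 to 5 in ΔS15, non-overlapping lower members from 37 to 59 in R11ΔS15 and 8 to 55 in ΔS15, and the median paralog change in ΔS15 from -0.044 to 0.0058. The highest counts came without WT replicate 3. Both arrays were then below WT for 20.2% of all genes in R11ΔS15 and 19.2% in ΔS15. With other arrays left out, the share of all genes was not computed. Leaving out an array of a mutant left 1 array there, which makes non-overlap easier for every gene.

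Same-numbered arrays deviated together among WT, R11 and K11 (r = 0.49 to 0.66 over genes) but not with ΔS15 or R11ΔS15 (-0.054 to 0.21), so the numbers were not taken as pairs. The replicate block sets WT replicate 3 aside because no other strain has that number. With it the medians were -0.15 in ΔS15 and -0.029 in R11. Limma called 10 members in ΔS15 and 31 in R11ΔS15, all lower (13.3% and 41.3% of members, against 1.51% and 3.14% of all genes), and none in the other comparisons. For ΔS15 and R11ΔS15 against WT, strain and the spike-in split cannot be told apart in that fit either.

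The limits are few arrays per strain, member signals among the highest on the arrays, and shared probe sets for 10 members.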
